A study of Mus musculus with 5 samples.

Results

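The genes described here carry a cell through mitosis and hold it at the spindle checkpoint: 50 mouse genes chosen by name for that role, of which 49 were measured. Each was represented by 1 microarray probe set annotated to that gene alone, the one with the highest mean log2 signal over the 5 arrays. The table covers 18193 genes in this way, and Ccnb1, which encodes cyclin B1, was not analysed here. RNA came from dorsal pancreatic buds of C57BL/6J mouse embryos at embryonic stage E10.5, each array from a pool of 3 buds freed of mesenchyme by mechanical dissection and amplified in 2 linear rounds. There were 2 arrays of Ptf1a heterozygotes and 3 of Ptf1a nulls, bred from heterozygous parents. Ptf1a encodes a basic helix-loop-helix factor of the pancreas. The comparison group carries 1 mutant allele too, and wild-type buds were not analysed here. The extent of the mutation is not given in the labels. The pools are named as separate, without their litters, so any p-value measures the spread between these pools.

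Mitosis is switched on when the kinase CDK1, bound to its cyclins, becomes active. Condensins and topoisomerase II then compact the chromosomes, kinesins build the spindle, and kinetochores attach each chromosome to microtubules. Unattached kinetochores keep the spindle checkpoint active, which holds back the anaphase-promoting complex (APC/C), a ubiquitin ligase that triggers chromosome separation and mitotic exit. These genes are transcribed mainly late in the cell cycle, so in a whole tissue their RNA is widely read as a sign of dividing cells, and the early bud grows by division of its progenitors.

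Many late cell cycle genes of mammals are known to carry a cell cycle homology region (CHR) beside CCAAT boxes, the sites of the factor NF-Y. Promoter stretches of 6 members are shown: Espl1, Ttk and Bub1, whose signal was lower in every null array, and Cdk1, Cdc20 and Top2a, whose groups overlapped. The gene list was chosen without regard to sequence, but these 6 were picked from it by hand. Each of the 6 holds a CCAAT box, against 29 of the 41 member windows available. The stretch is 200 bases long for Top2a and 100 for the others. The strand is that of the gene, the sequence ends at the base before the most upstream annotated start, and it comes from RefSeq on build GRCm38.p6. Capitals mark CHR elements (TTTGAA on either strand, or the palindrome TTCGAA) and CCAAT boxes (CCAAT on either strand). The Espl1 stretch holds a CHR element 27 bases before the start. The CHR elements of Ttk and Bub1 lie in their windows but outside the stretches printed. The stretches lie at chr15:102296193-102296292 on the plus strand for Espl1, chr9:83834589-83834688 on the plus strand for Ttk and chr2:127831860-127831959 on the minus strand for Bub1. Those of Cdk1, Cdc20 and Top2a lie on the minus strand at chr10:69352913-69353012, chr4:118437344-118437443 and chr11:99024190-99024389.
Espl1: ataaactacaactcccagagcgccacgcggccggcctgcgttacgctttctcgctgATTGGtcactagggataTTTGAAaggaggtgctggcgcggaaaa
Ttk: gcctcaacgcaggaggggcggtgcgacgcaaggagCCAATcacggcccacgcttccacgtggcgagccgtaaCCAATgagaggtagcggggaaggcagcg
Bub1: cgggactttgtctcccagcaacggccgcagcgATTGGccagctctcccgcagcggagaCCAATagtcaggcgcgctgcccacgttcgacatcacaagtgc
Cdk1: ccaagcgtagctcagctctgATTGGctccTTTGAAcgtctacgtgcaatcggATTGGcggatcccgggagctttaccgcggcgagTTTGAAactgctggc
Cdc20: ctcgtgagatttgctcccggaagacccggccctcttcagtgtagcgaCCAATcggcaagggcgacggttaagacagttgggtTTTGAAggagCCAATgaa
Top2a: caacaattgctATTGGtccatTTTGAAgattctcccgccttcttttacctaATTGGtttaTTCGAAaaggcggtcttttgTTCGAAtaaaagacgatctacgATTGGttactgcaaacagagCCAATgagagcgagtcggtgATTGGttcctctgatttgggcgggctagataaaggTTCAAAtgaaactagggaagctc

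A RefSeq promoter window was available for 41 of the 50 genes. In the whole window, from 250 bases before the start to 50 after it, 31 of the 41 (75.6%) held a CHR element, against 19.5% of all 27025 genes in the promoter table. A CCAAT box was found in 29 of the 41 (70.7%), against 38.0% of all genes. Both elements stood together in 27 (65.9%), against 7.73%. Within 50 bases of the start, a distance chosen after the sequences were seen, 28 members (68.3%) held a CHR element against 5.31% of all genes. Genes of DNA replication and S phase, which act earlier in the cycle, held a CHR element in 8 of 38 windows (21.1%) and a CCAAT box in 23 (60.5%). Other mitotic genes, the list most like the members, held a CHR element in 35 of 78 windows (44.9%), a CCAAT box in 47 (60.3%) and both in 23 (29.5%). A match is a string of letters and not a measured site. Of the 7 lower members with a window, 5 held a CHR element and 4 a CCAAT box, while Birc5 and Ncaph held none of these letters.

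The median difference over these genes between null and heterozygous buds was small, and no single gene passed the test. All 49 members lay above background on all 5 arrays, against 57.0% of all genes. Their median log2 change, null minus heterozygote, was -0.054, against -0.012 over all 18193 genes and -0.0074 over the 10376 genes above background on all arrays. The middle 50% of the members lay between -0.29 and 0.057, and 27 of 49 (55.1%) had log2 changes under 0.2 in size, against 44.7% of genes above background. Log2 changes above 0.5 in size were found for 5 members (10.2%), all negative, against 18.8% of genes above background.

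Limma with Benjamini-Hochberg adjustment over all 45037 probe sets called 0 of the 49 at an adjusted p under 0.05, with 0% of all probe sets called, and the lowest adjusted p among members was 0.974. The fit with a trended, robust variance also called 0 members, with 0.0178% of all probe sets called and a lowest adjusted p of 0.925. At an unadjusted p under 0.05 the first fit had 0 members against 5.52% of all probe sets. The trended fit had 3, Ncaph, Ect2 and Birc5, which is 6.12% of members against 4.93% of all probe sets. The 95% interval of a member's change extended by a median of 0.945 to each side, so it reached a halving for 23 members and a doubling for 12. Differences of that size are therefore not excluded for those genes.

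In 9 of the 49 members (18.4%) all 3 null arrays had less signal than either heterozygote array, against 10.1% of all genes. In 0 members did all nulls have more, against 9.82% of all genes and 9.9% of all probe sets. Taken in either direction, 18.4% of members separated against 19.9% of all genes, so the total was near the background, and the 9 all lay on the lower side. The same shares over genes above background on all arrays were 9.98% lower, 9.6% higher and 19.6% in either direction. An exact permutation test of 2 arrays against 3 cannot go below 0.1, and none was run. The 9 were Ect2, Aurkb, Ncaph, Birc5, Kif2c, Ttk, Espl1, Ccna2 and Bub1, with log2 changes from -0.75 to -0.27 and limma adjusted p of 0.974 or more.

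**Figure D1:**
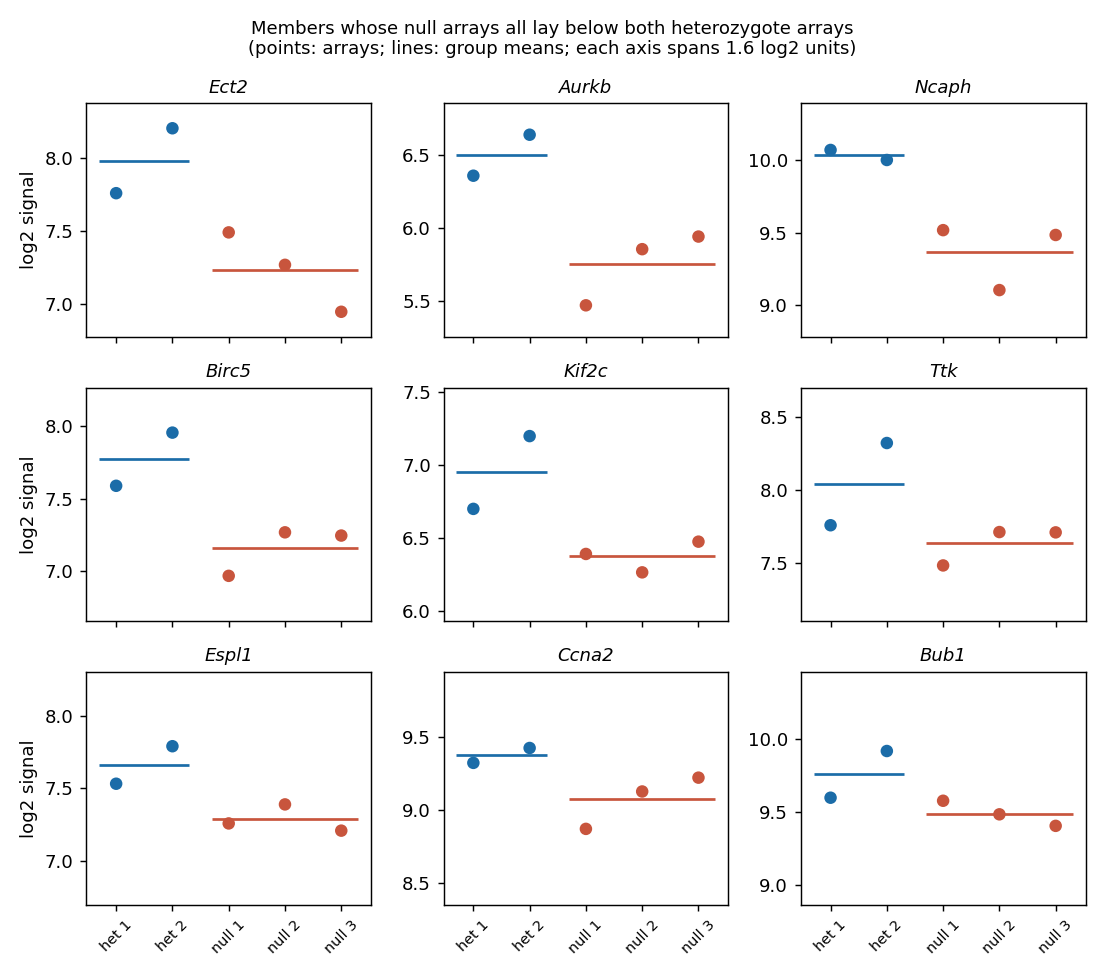
Normalised log2 signal (vertical axis) on each array for the 9 members with less signal on each null array (red) than on either heterozygote array (blue); horizontal lines are group means. The gap between the groups is widest for Ncaph (0.48) and narrowest for Bub1 (0.021).

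In the CDK1 switch, Ccna2 encodes cyclin A2, which acts from S phase into early mitosis. Its log2 signal was 9.32 and 9.42 in heterozygotes and 8.87, 9.13 and 9.22 in nulls. The nulls were lower, but the gap of 0.10 between the groups was smaller than the range of 0.35 among the nulls (log2 change -0.30, SE 0.35). Cdk1, the kinase itself, had 10.20 and 10.503 against 10.24, 10.36 and 10.17. The groups overlapped, with a log2 change of -0.092 (95% interval -0.98 to 0.80). The cyclin gene Ccnb2 and the activating phosphatase genes Cdc25b and Cdc25c had changes of 0.0057, -0.42 and 0.17, each with overlapping groups.

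Among the other mitotic and centriole kinases none separated, against 19.9% of all genes in either direction. Plk1, which drives mitotic entry and spindle assembly, had 8.94 and 8.61 in heterozygotes and 8.49, 7.9995 and 8.94 in nulls. Null replicate 3 matched the higher heterozygote, and the log2 change was -0.29 (SE 0.44). Aurka, the Aurora kinase of the spindle poles, was among the 5 members with the highest log2 changes, at 5.68 and 5.86 against 6.01, 5.82 and 6.25. Null replicate 2 lay between the heterozygotes (log2 change 0.26, SE 0.36). Plk4, which starts centriole duplication, and Melk had changes of -0.32 and 0.033.

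Mki67 encodes the antigen Ki-67, the standard marker of proliferating cells. Its signal was 11.58 and 11.77 in heterozygotes and 11.61, 11.58 and 11.76 in nulls, with a log2 change of -0.024 (95% interval -0.89 to 0.85). Foxm1, the transcription factor that drives many late cell cycle genes, had 5.95 and 6.09 against 6.01, 6.07 and 6.01. For both genes the groups overlapped. The change of Foxm1 was 0.011 (95% interval -0.84 to 0.87). Signals of different probe sets depend on the probes as well as the transcript, so levels are not compared between genes.

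For the spindle checkpoint 4 of 5 members had negative changes. On every null array 2 (40%) were lower, against 10.1% of all genes, both by small gaps. Ttk encodes the kinase MPS1, which starts checkpoint signalling at kinetochores. It had 7.76 and 8.32 in heterozygotes and 7.48, 7.71 and 7.71 in nulls. The groups were separated by 0.047 and heterozygote replicate 2 stood above the rest (log2 change -0.41, SE 0.37). Bub1, a kinase that recruits other checkpoint proteins, had 9.60 and 9.92 against 9.58, 9.48 and 9.40. Its gap was 0.021, the smallest of the 9 (log2 change -0.27, SE 0.34). Mad2l1 encodes MAD2, the protein that inhibits the APC/C, and had 10.26 and 10.93 against 10.44, 10.30 and 10.21. Heterozygote replicate 1 lay inside the null range (log2 change -0.28, SE 0.39), and Bub3 and Bub1b had changes of -0.16 and 0.057. Further probe sets above background on all arrays went both ways. They had 0.24 for Bub1, 0.23 and -0.79 for Bub1b, -0.22 for Bub3 and -0.55 for Ttk.

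At the APC/C and anaphase step, Espl1 encodes separase, the protease that cuts cohesin. It had 7.53 and 7.79 in heterozygotes and 7.26, 7.39 and 7.21 in nulls. All nulls were lower, by a log2 change of -0.37 (SE 0.34). Cdc20, the activator of the APC/C and target of the checkpoint, had 7.33 and 6.65 against 7.33, 7.08 and 6.95. All nulls lay between the heterozygotes (log2 change 0.13, SE 0.40). Ube2c, its ubiquitin-conjugating enzyme, and Pttg1, which encodes the separase inhibitor securin, had changes of -0.16 and 0.17.

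The chromosomal passenger complex corrects faulty attachments and later acts in cytokinesis. At the probe sets used, its 4 members all had negative changes, that of Cdca8 near 0. Aurkb, its kinase, had 6.36 and 6.64 in heterozygotes and 5.47, 5.86 and 5.94 in nulls. The gap of 0.42 between the groups exceeded the difference of 0.28 between the heterozygotes but not the null range of 0.47. The signal was 1.67-fold lower (log2 change -0.74, SE 0.37, limma adjusted p = 0.974). Birc5 encodes survivin, which places the complex on chromosomes, and had 7.59 and 7.95 against 6.97, 7.27 and 7.25. It was 1.52-fold lower, with separated groups (log2 change -0.61, SE 0.36, limma adjusted p = 0.991). The scaffold gene Incenp and Cdca8, which encodes borealin, overlapped, with changes of -0.15 and -0.029. At further probe sets above background on all arrays Incenp had -0.16, overlapping, and 0.69, with every null higher. Cdca8 had -0.14 and -0.39, both overlapping.

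Of 6 kinesins, Kif2c alone separated (16.7% lower, against 10.1% of all genes). Kif2c encodes MCAK, which shortens microtubules at centromeres, and had 6.70 and 7.20 in heterozygotes and 6.39, 6.26 and 6.48 in nulls. The nulls lay close together below both heterozygotes (log2 change -0.57, SE 0.36). The change was -0.32 without heterozygote replicate 2, and -0.10 at the probe set used when those with the suffixes _s_at and _x_at are left out. Kif11, the motor Eg5 that pushes spindle poles apart, had 7.69 and 7.53 against 7.40, 7.91 and 7.62. The nulls spanned both heterozygotes (log2 change 0.029, SE 0.36). Kif20a, a motor of the central spindle, had 8.38 and 7.57 against 7.89, 8.59 and 8.16, overlapping, with a change of 0.24. Kif20b, Kif23 and Kif4 had changes of 0.045, -0.25 and -0.054.

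No centromere or kinetochore gene separated, against 19.9% of all genes in either direction, and 3 of 7 had negative changes. Ndc80, part of the complex that grips microtubules, had 7.66 and 7.92 in heterozygotes and 7.26, 7.88 and 7.35 in nulls. Null replicate 2 lay between the heterozygotes (log2 change -0.29, SE 0.39). Cenpe, a kinetochore motor, had the highest change of all members, at 7.31 and 7.78 against 7.87, 8.42 and 7.37. Null replicate 3 lay between the heterozygotes (log2 change 0.34, SE 0.47). Cenpa, the centromeric histone, had a change of 0.095, and Nuf2, Spc24 and Spc25, partners of Ndc80, had 0.13, -0.34 and -0.013. Cenpf, a large kinetochore protein, had a change of 0.11.

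Ect2, which activates the GTPase RhoA at the cleavage furrow, had the lowest change of all members. Its signal was 7.76 and 8.20 in heterozygotes and 7.49, 7.27 and 6.94 in nulls. The groups were separated by 0.27, against 0.45 between the heterozygotes and 0.54 among the nulls. The signal was 1.68-fold lower (log2 change -0.75, SE 0.39, limma adjusted p = 0.979). Nusap1, a microtubule-bundling protein, had 8.29 and 8.28 against 8.58, 8.84 and 8.13, overlapping, with a change of 0.23. Anln, Racgap1, Tpx2 and Prc1, which act at the furrow, the midzone or in spindle assembly, had changes of -0.27, -0.083, -0.038 and 0.13.

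Among genes of chromosome structure Ncaph, which encodes the kleisin subunit of condensin I, had 10.07 and 9.997 in heterozygotes and 9.52, 9.11 and 9.48 in nulls. Its gap of 0.48 was the widest of the 9 and exceeded the spread within either group. The signal was 1.58-fold lower (log2 change -0.66, SE 0.36, limma adjusted p = 0.979, and 0.925 in the trended fit). At the probe sets used for the other condensin subunits the groups overlapped. Ncapd2 had 7.78 and 7.88 against 7.81, 8.24 and 7.98 (log2 change 0.18), and Ncapg, Smc2 and Smc4 had changes of -0.076, -0.32 and -0.0076. At further probe sets above background on all arrays, every null was higher for Ncapg (0.58) and for Smc2 (0.51). Another of Smc2 had every null lower (-0.41), and the rest of these subunits' further probe sets overlapped. Top2a, the topoisomerase that untangles sister chromosomes, had 10.91 and 11.33 against 11.12, 11.01 and 11.12. All nulls lay between the heterozygotes, with a change of -0.035 (95% interval -0.94 to 0.87).

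**Figure D2:**
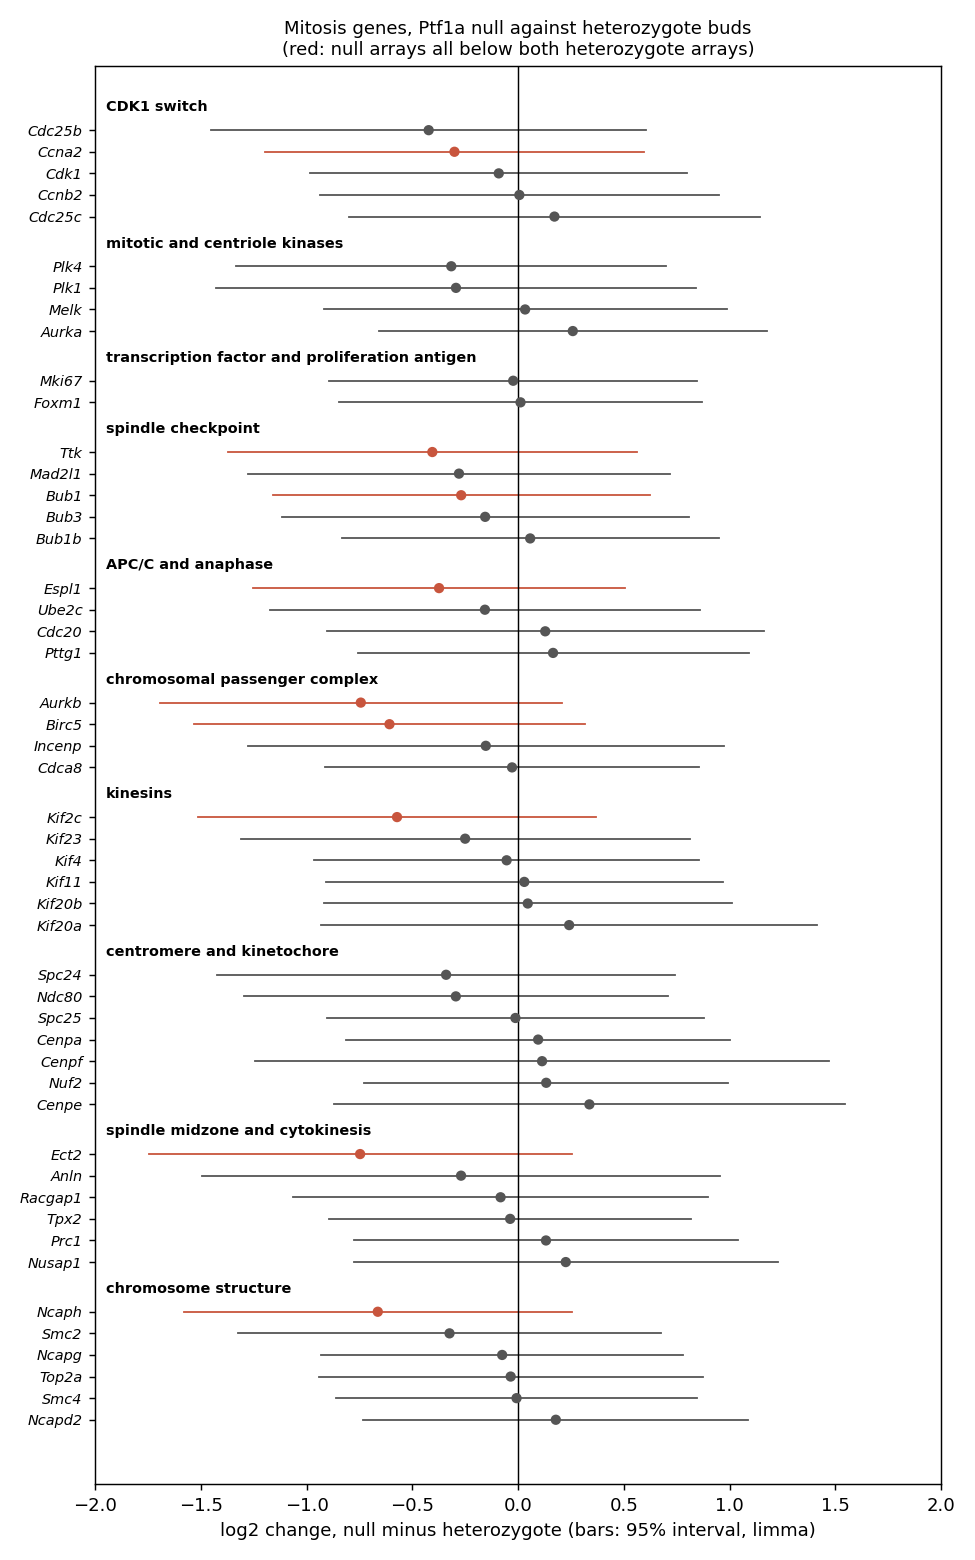
Log2 change of each of the 49 members (null minus heterozygote, horizontal axis), grouped by role; bars are limma 95% intervals and red marks the 9 members with separated groups. Every interval includes 0, and points run from -0.75 (Ect2) to 0.34 (Cenpe).

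**Figure D3:**
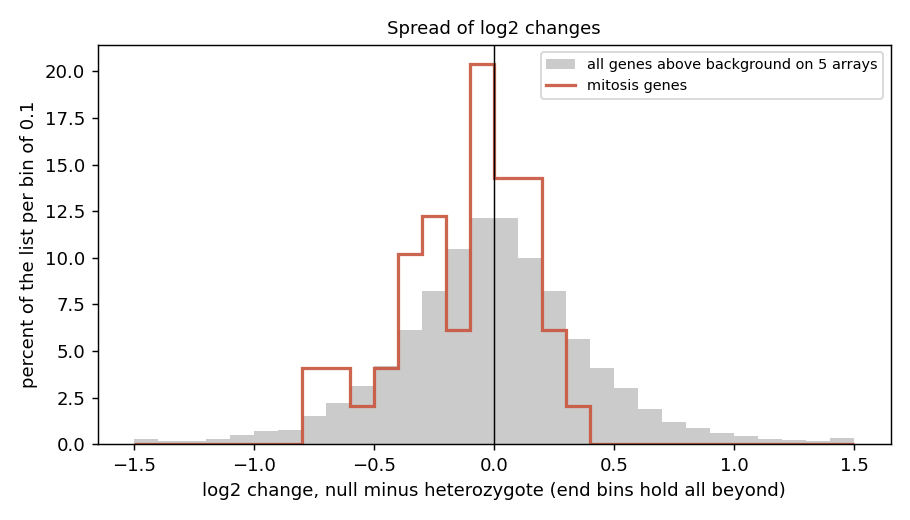
Share of genes (vertical axis, percent) by log2 change in bins of 0.1, for the 49 members (red line) and the 10376 genes above background on all 5 arrays (grey). Of the members 55.1% lie within 0.2 of 0, against 44.7% of the other set, and the 5 members beyond 0.5 all lie on the lower side.

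Many of these genes have further probe sets, which measure other parts of the transcript. For 33 members there was more than 1, and 45 of the 62 further probe sets were above background on all arrays. Of those 45, 28 had the sign of the brighter probe set. Groups separated at 5 of the 45 with nulls lower (11.1%) and at 3 with nulls higher (6.67%), against 10% and 9.88% of all such further probe sets. For the 9 lower members there were 8 further probe sets above background, in 6 genes, of which 6 had negative changes and 1 separated. That 1 was of Ncaph, at 8.83 and 8.83 in heterozygotes and 8.67, 8.46 and 8.53 in nulls (log2 change -0.28). Aurkb, Ccna2 and Ttk had negative changes with overlapping groups at their other probe set (-0.61, -0.28 and -0.55), and Bub1 a positive one (0.24). Kif2c had -0.35, -0.10 and 0.21. Birc5, Ect2 and Espl1 had 1 probe set each. The probe sets used for Aurkb, Ncaph and Kif2c carry the suffix _x_at, which marks probes that can match other transcripts.

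**Figure D4:**
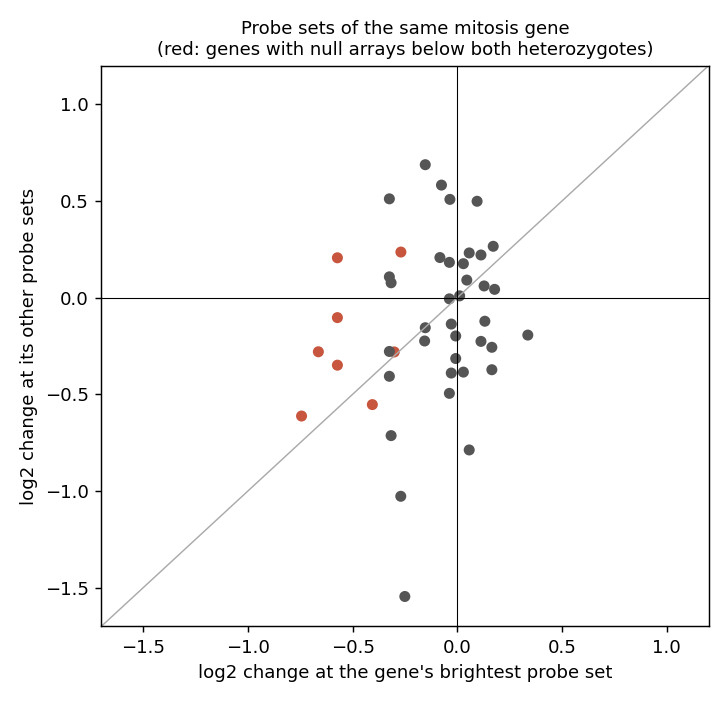
Log2 change at each further probe set above background (vertical axis, 45 points) against the change at the gene's brightest probe set (horizontal axis), with the line of equality; red marks the 9 lower members. Points lie on both sides of the line, and 2 of the 8 red points lie above 0.

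The count of lower members moved with the scaling and with single arrays. With median centring in place of quantile normalisation 15 members were lower and 0 higher, against 12.4% and 8.003% of all genes, and Cdk1, Ndc80, Plk4, Smc4, Spc24 and Tpx2 joined the 9. That scaling shifted the median over all genes to -0.095, and the members' median to -0.22. Without heterozygote replicate 2, 13 members (26.5%) were lower and 10 (20.4%) higher, against 24.96% and 25.5% of all genes. Without heterozygote replicate 1 the counts were 22 (44.9%) and 9 (18.4%), against 27.8% and 25.8%. Without null replicate 3 they were 14 (28.6%) and 3 (6.12%), against 16.6% and 16.4% of all genes. Without null replicate 1 they were 11 (22.4%) and 1 (2.04%), against 16.7% and 16.3%. Without null replicate 2 they were 10 (20.4%) and 5 (10.2%), against 15.8% and 15.98%. Without heterozygote replicate 2 the share of lower members was thus near its background, and the log2 changes of Kif2c, Ttk, Espl1 and Bub1 were -0.32, -0.12, -0.25 and -0.11. Without heterozygote replicate 1 those of Ttk and Bub1 were -0.69 and -0.43, and without null replicate 1 that of Ccna2 was -0.20. Of the 9, 8 had their highest signal on heterozygote replicate 2 and 1 on replicate 1. Chosen as they were, they could be highest on a heterozygote array only. Among all 49 members any of the 5 arrays could be highest, and for 21 it was heterozygote replicate 2. These counts are therefore not comparable.

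On each array the level of the list was taken as the median, over members, of the log2 signal minus the gene's mean over the arrays. In heterozygotes it was 0.034 and 0.068, and in nulls -0.043, -0.067 and -0.057. The groups did not overlap. The 3' minus 5' log2 signal of the Gapdh control probe sets, a sign of RNA quality, did not overlap either, at 1.69 and 1.52 in heterozygotes and 1.42, 1.41 and 1.46 in nulls, while that of actin overlapped (0.57 to 0.71). Its part in the list's values was not tested. A list of other mitotic genes, 91 of 93 measured, stood at 0.046 and 0.087 against -0.031, -0.0036 and -0.047. Of these 91, 0 were called in either fit. On every null array 9 (9.89%) were lower, against 10.1% of all genes, and 1 (1.10%), Tacc3, was higher, against 9.82%. Their median log2 change was -0.076. The lowest changes were those of Anapc11, an APC/C subunit (-0.65), Mad1l1, which encodes the partner of MAD2 (-0.65, above background on 3 of 5 arrays), and Mis12, a kinetochore protein (-0.62), and of these Mis12 alone separated. The highest were Cep55, which acts in abscission (0.39), and the centromere genes Cenpt (0.37) and Cenpq (0.31), all overlapping. In the DNA replication and S phase list 0 of 46 were called. In it 4 (8.70%) were lower and 4 (8.70%) higher on every null array, against 10.1% and 9.82% of all genes. The list's median was -0.013. Its extremes were Fen1 (-0.42), Prim2 (-0.39) and Orc6 (-0.38) on the lower side and Tyms (0.63), Pola2 (0.62) and Pold1 (0.29) on the higher. Its level was 0.15 and -0.11 in heterozygotes and 0.020, -0.040 and 0.044 in nulls, with overlapping groups.

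**Figure D5:**
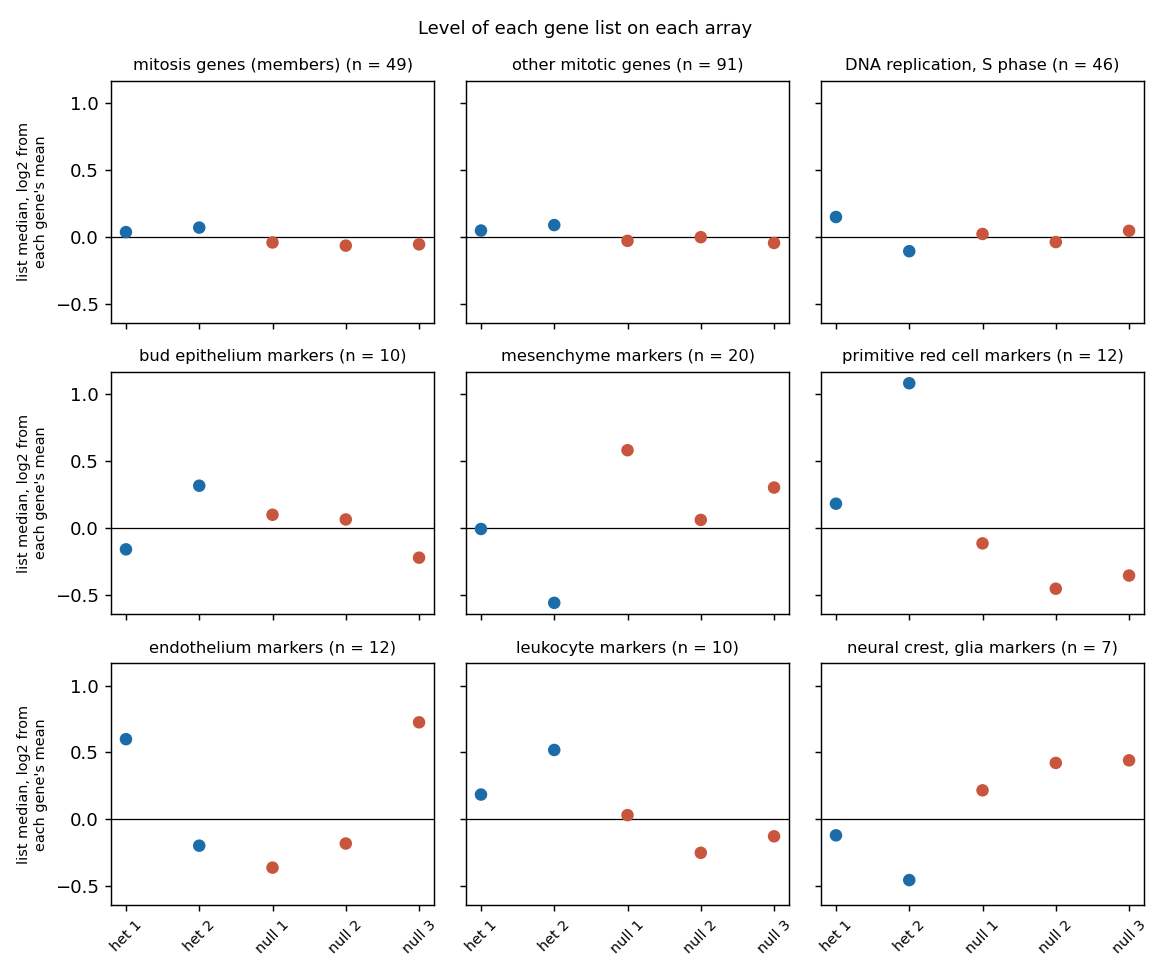
Median log2 signal of each gene list on each array, relative to each gene's mean over the 5 arrays (vertical axis, blue heterozygote, red null). The members span 0.034 and 0.068 in heterozygotes to -0.067 at the lowest null, against 1.08 to -0.45 for primitive red cell markers.

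Levels of some marker lists of other cell types also differed between the groups. Of 12 primitive red cell markers, 11 had lower values in nulls and 7 (58.3%) were lower on each null array, against 10.1% of all genes. Their level was highest on heterozygote replicate 2 (1.08, against 0.18 on replicate 1 and -0.12, -0.45 and -0.36 in nulls). Their summed linear signal was 9594 to 12120.5 in heterozygotes and 7992 to 8889 in nulls, and Hba-a1 was not above background on any array. Of 20 mesenchyme markers, 18 had higher values in nulls and 7 (35%) were higher on each null array, against 9.82% of all genes. The 20 summed to 3098 to 3404 in heterozygotes and 4420 to 4643 in nulls. Linear sums are weighted towards the brightest genes. These were Fn1 for mesenchyme (log2 change 0.74), Hbb-y for red cells (-0.063) and Krt8 for bud epithelium. Of the 20, 10 were above background on all arrays, and Twist1 was not above it on any array. Among the 7, Acta2 was above background on 4 of 5 arrays, and Nkx3-2 and Osr1 on 3 of 5. Limma called 0 genes of any marker list in either fit. Of the endothelium markers 6 had lower and 6 higher values and 0 separated. They summed to 320 to 491 and 283 to 576, leukocyte markers to 93.6 to 252 and 89.9 to 167 (Cd14 and C1qa not above background on any array), and neural crest and glia markers to 257 to 279 and 342 to 395. Above background on all arrays were 8 of 12 endothelium markers, 1 of 10 leukocyte markers (Csf1r) and 5 of 7 neural crest and glia markers. Of the 7 neural crest and glia markers, 4 had higher and 3 lower values in nulls. On each null array 2 (28.6%) were higher and 1 (14.3%), Fabp7, was lower, against 9.82% and 10.1% of all genes. All 10 measured epithelial markers of the bud were above background on all arrays, and they summed to 4354 to 5262 and 5013 to 6466. Though the sums reached higher in nulls, 7 of the 10 had negative log2 changes (median -0.25). Mnx1 (-2.68), Nkx6-1 (-0.97) and Pdx1 (-0.51) were lower on each null array (30% of the 10, against 10.1% of all genes). The keratin genes Krt8 (0.44) and Krt18 (0.67) were higher on each null array (20%, against 9.82%). In pooled tissue, fewer dividing cells and less RNA per dividing cell cannot be told apart. The part of other cell types in the values of the mitosis genes was not tested.

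Ptf1a itself had log2 signals of 7.10 and 7.33 in heterozygotes and 5.21, 6.07 and 5.00 in nulls (limma adjusted p = 0.651), every null lower. Array medians before normalisation were 13.7 to 17.5 on the linear scale. Array pairs correlated at 0.849 to 0.854 within a genotype and at 0.838 to 0.862 between genotypes, so arrays of 1 genotype were no more alike than arrays of different genotypes.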

How the data were processed

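For each probe set of 5 Affymetrix mouse genome arrays the authors deposited a signal intensity on a linear scale. GCOS and RMA are named, per the submitters' processing notes, without versions or the step each did. After taking log2 with no offset, arrays were quantile normalised, and 64 control probe sets were then left out, leaving 45037. Names came from the platform annotation (34945 probe sets with 1 symbol, 932 with several, 9160 with none) and were matched by gene ID. Background was the 95th percentile of 27 Bacillus subtilis control probe sets on each array (3.03 to 3.29). Genotype was tested with limma 3.58.1 in R 4.3.3 (lmFit, untrended eBayes, two-sided, Benjamini-Hochberg over all probe sets, threshold 0.05), after the script was tested on simulated data. The number of arrays limits precision.

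Members and lists were chosen with earlier results of these data known. Members described array by array are those with separated groups, the 5 highest and 5 lowest changes, the 2 brightest and 2 dimmest, and the best known. Of other lists the 3 highest and 3 lowest are named. Alternatives were median centring, no normalisation, a trended robust fit, values raised to background, a filter on dim probe sets, an offset of 16, other choices of probe set, a replicate block and leaving out each array. Same-numbered replicates did not deviate together (correlations -0.017 and 0.0080).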

Additional observations from a re-analysis of the deposited data

How the results depend on the processing

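Limma called 0 members under each of the 14 alternatives, and the lowest adjusted p of any member was 0.747, with values raised to background. The count of members lower on every null array was 15 with median centring and 15 without normalisation (30.6%, against 12.4% and 11.4% of all genes), against 9. With an array left out it was 10 to 22 (20.4% to 44.9%), where 15.8% to 27.8% of all genes separated this way. It stayed within 1.5 times with values raised to background, the filter, the offset of 16 and the other choices of probe set. With the mean of all probe sets it was 11 (22.4%, against 10.4% of all genes), but the genes changed. Bub1 (-0.017) and Kif2c (-0.20) then overlapped, and Anln, Kif20b, Plk4 and Smc2 joined. The count higher on every null array was 3 with the mean of all probe sets of a gene (Cenpa, Ncapg and Top2a, 6.12% against 9.98% of all genes), against 0. With an array left out it was 1 to 10 (2.04% to 20.4%, against 15.98% to 25.8% of all genes), since fewer arrays separate more easily. The median log2 change over members, -0.054, was -0.22 with median centring and -0.26 without normalisation, where the median over all genes was -0.095 and -0.14. It was -0.15 with the mean of all probe sets and -0.079 without _s_at and _x_at probe sets. That last choice left 48 members measured, of which 7 (14.6%) were lower, against 10.02% of all genes. Aurkb had only probe sets with these suffixes, so it was not measured there. Kif2c was still measured, but its groups then overlapped (-0.10). The members' median was -0.10 to -0.041 with an array left out. With the replicate block it was -0.077 and 0 members were called. Replicate 3 exists in nulls alone, so that fit compares the pairs numbered 1 and 2, and the pairing rests on a shared number only. Of 23 members described by array, 9 had the opposite sign under some alternative, 21 times in all. None of the 9 lower members did, but this was largely fixed by how they were chosen. With all nulls below both heterozygotes, their sign was bound to hold with arrays left out and with the replicate block. The trended fit, values raised to background and the filter left their log2 changes as they were. The cause of the shifts under the other alternatives was not tested.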
